A study of Homo sapiens with 2 samples.

Results

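The miR-191 and miR-425 cluster comprises the hairpins MIR191 and MIR425, which lie side by side on 1 primary transcript and can each give a product from the 5p and the 3p arm. The rows were chosen by name, hsa-miR-191 or hsa-miR-425 with either arm, which names 4 mature products. Of these, 3 are listed in the data (miR-191-5p, miR-425-5p and miR-425-3p), out of 425 mature miRNAs listed in either library, and miR-191-3p is listed in neither and was counted as 0. The cells were MDA-MB-231-IV2-1, a highly metastatic subline that was isolated in a mouse model from the human triple-negative breast cancer line MDA-MB-231. The control library came from cells that received a scrambled control siRNA (N.C), and the knockdown library from cells that received a pool of siRNAs against LOC550643, a transcript described as a long non-coding RNA. In both cases RNA was taken 48 h after a transient transfection. The cell line field of the labels names the parental line MDA-MB-231, while the titles name the IV2 subline. Small RNA was sequenced from each condition in 1 library, so the differences between them could not be set against a spread between replicates, and no p-values are given.

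Hairpins on 1 primary transcript are cut out of it by Drosha and separated into mature miRNAs by Dicer, after which 1 arm is usually kept in an Argonaute protein as the guide strand and the other is degraded. Products of a shared transcript therefore start from a common supply, while their mature levels also depend on processing, arm choice and stability. In breast cancer the miR-191 and miR-425 cluster is known as responsive to estrogen, and MDA-MB-231 cells lack the estrogen receptor. The host gene DALRD3 encodes a factor in tRNA methylation.

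In the GENCODE 29 annotation of GRCh38, MIR191 (ENSG00000207605.3) lies on the minus strand of chromosome 3 from 49020618 to 49020709 and MIR425 (ENSG00000199032.1) from 49020148 to 49020234. The hairpins are 92 and 87 bases long and are separated by 383 bases, with MIR191 upstream in the direction of transcription. Both lie inside DALRD3 (minus strand, 49015488 to 49022293). Of the 15 annotated DALRD3 transcripts, 4 span the hairpins, each with both hairpins in its intron 1, and the other 11 do not reach them. In 1 of the 4 this intron runs from 49018319 to 49020845. On the opposite strand, MIR191 but not MIR425 also lies in intron 1 of 1 of the 6 annotated transcripts of NDUFAF3, which encodes an assembly factor of mitochondrial complex I.

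**Figure D1:**
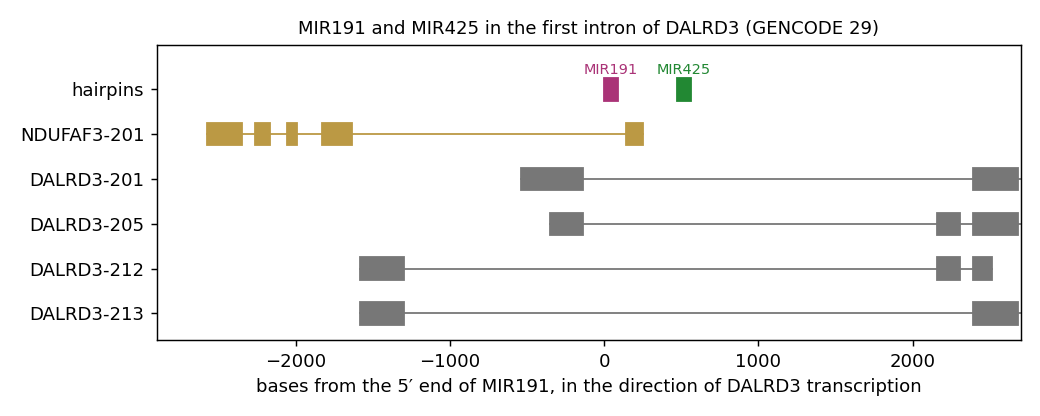
Exons (boxes) and introns (lines) of the 4 DALRD3 transcripts that span the hairpins and of the NDUFAF3 transcript over MIR191, drawn by distance in bases from the 5′ end of MIR191 in the direction of DALRD3 transcription and cut at the right edge. Both hairpins sit in the first intron of all 4 DALRD3 transcripts, 383 bases apart.

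The mature sequences are shown because the products of the cluster differ in their seeds, the bases 2 to 8 that pair with target transcripts, which are in capitals here. They are RefSeq sequences on GRCh38.p14, written 5′ to 3′, all from the minus strand of chromosome 3, and RefSeq entries were matched for 3 of the 4 products.
miR-191-5p (49020672 to 49020694): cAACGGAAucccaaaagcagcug
miR-191-3p (49020631 to 49020652): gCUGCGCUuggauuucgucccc
miR-425-3p (49020159 to 49020180): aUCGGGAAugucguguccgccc

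The hairpin of MIR191 carries both of its arms, in capitals here, around a loop, and is shown because only its first arm was seen in the data.
MIR191 (49020618 to 49020709): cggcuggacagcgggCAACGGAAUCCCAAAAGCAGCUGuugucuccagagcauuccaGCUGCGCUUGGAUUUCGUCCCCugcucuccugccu

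The 3 seeds differ from one another, and no other mature miRNA among the 2370 names of the RefSeq table carries any of them. Within that table the products shown therefore have no seed relatives whose levels could be set beside theirs. The table holds 350 of the 425 listed names, so the seeds of the other listed miRNAs were not searched.

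The deposited values are RPM, shares of the reads assigned to mature miRNAs scaled to 1000000. A single read was worth 5.29 RPM in the control and 2.03 RPM in the knockdown library, as read from the spacing of the lowest values, which gives about 189049 and 491541 reads on miRNAs. Every value of the cluster was a whole number of reads within 0.031 of a read. All intervals given are 95% intervals of these reads and cover counting error only, which for PCR-amplified reads is a lower limit of the true error. The cell type markers that were checked gave 0 of 5 blood cell miRNAs and 2 of 6 epithelial miRNAs in each library, the latter summing to 10.6 and 8.14 RPM. The 6 miRNAs of mesenchymal-like breast lines were all listed and summed to 191911 and 136296 RPM. Most of this was miR-100-5p (176487 and 123748 RPM), while miR-155-5p was at only 15.9 and 10.2 RPM. Being listed was the usual case, with 376 of the 425 miRNAs in the control and 375 in the knockdown library. Of 3 muscle miRNAs only miR-206 was listed, at 52.9 and 36.6 RPM, and the liver miRNA miR-122-5p was not.

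In both libraries miR-425-5p was the most abundant product of the cluster, followed by miR-191-5p and, far below, miR-425-3p. The level of miR-425-5p was 1434 RPM in control cells (interval 1268 to 1615 RPM, 271 reads) and 1296 RPM after knockdown (interval 1197 to 1400 RPM, 637 reads). It ranked 40 in the control and 43 in the knockdown library. The level of miR-191-5p, whose reported targets include the cell cycle genes CCND2 and CDK6, was 709 RPM in control cells (interval 594 to 839 RPM, 134 reads) and 482 RPM after knockdown (interval 423 to 548 RPM, 237 reads). Its rank went from 56 to 66. The intervals of miR-425-5p and miR-191-5p did not overlap in either library, so their order in RPM exceeds counting error at this depth. How closely the reads of different miRNAs follow their amounts in the cells was not tested. The level of miR-425-3p, the minor product of its hairpin, was 31.7 RPM in control cells (interval 11.6 to 69.1 RPM, 6 reads) and 16.3 RPM after knockdown (interval 7.03 to 32.1 RPM, 8 reads). For miR-191-3p no read was seen, which allows up to 15.9 RPM in the control and 6.10 RPM in the knockdown library, the value of 3 reads in each. Together the listed products made up 2174 RPM, or 0.217% of the miRNA reads, in the control library and 1794 RPM, or 0.179%, in the knockdown library.

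**Figure D2:**
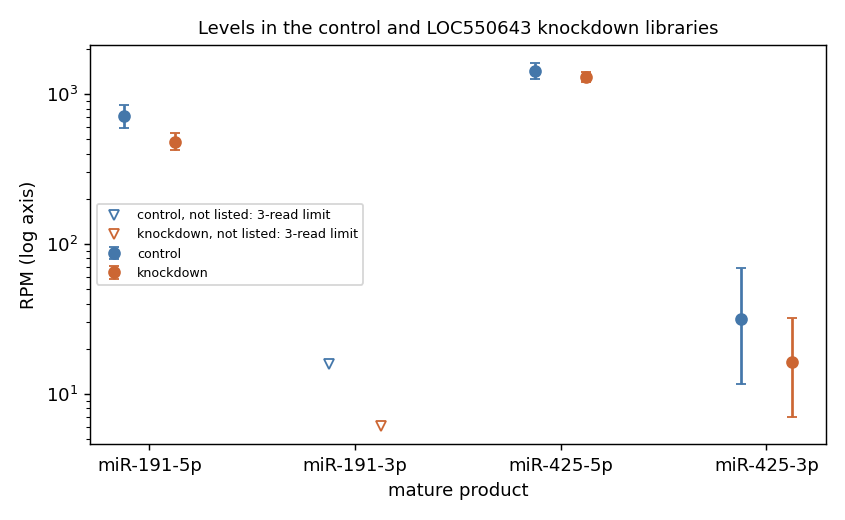
Level in RPM (log axis) of the 4 products in the control and knockdown libraries, with 95% counting intervals as bars, and open triangles at the 3-read limit where a product is not listed. Only for miR-191-5p do the bars of the libraries not overlap (594 to 839 against 423 to 548 RPM).

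All 3 listed products were lower in RPM after knockdown, and none differed by more than 2-fold. The value of miR-191-5p had a log2 fold change of -0.56 for knockdown over control, measured on log2(RPM + 1), which is 0.681-fold (interval -0.87 to -0.24 on the log2 scale). This interval excludes 0, and the RPM intervals of the libraries do not overlap. For miR-425-5p the log2 fold change was -0.15, which is 0.904-fold, and its interval, -0.35 to 0.06, includes 0, so the depth could not show a difference. For miR-425-3p, with 6 and 8 reads, it was -0.92 with an interval of -2.68 to 0.84, and it was likewise beyond this depth. The number of miR-425-3p reads was in fact higher in the knockdown library, which is 2.60 times as deep. The summed cluster had a log2 fold change of -0.28, with an interval of -0.45 to -0.10.

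The direction depended in part on how the libraries were scaled. Median-of-ratios size factors raise every log2 ratio by 0.20 and scaling to the 75th percentile raises it by 0.28. Under both, miR-425-5p changed sign, to 0.053 and 0.14. The value of miR-191-5p stayed below 0, at -0.36 and -0.27, but its interval with 75th-percentile scaling ran from -0.59 to 0.04 and no longer excluded 0. The log2 ratio of the summed cluster became -0.078 and 0.0054, with intervals that included 0 in both cases.

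A lower value in the knockdown library was common among all miRNAs. More than 2-fold lower were 116 of the 425 listed miRNAs (27.3%) and more than 2-fold higher were 76 (17.9%), against 0 of the 3 listed products of the cluster in either direction. Restricted to 124 miRNAs averaging 100 RPM or more, these shares were 5.65% and 2.42%. The interval of the log2 ratio lay below 0 for 41 of the 124 (33.1%), miR-191-5p among them, and above 0 for 22 (17.7%). An interval that excludes 0 was thus no rare event in this pair of libraries. The median log2 fold change was -0.20 over all 425 miRNAs and -0.09 over the 124, with quartiles of -0.45 and 0.24. Relative to the median of the 124, miR-191-5p was at -0.46 and miR-425-5p at -0.05. Of the 124, 22 had a lower log2 fold change than miR-191-5p and 57 a lower one than miR-425-5p, which places miR-191-5p below the lower quartile and miR-425-5p near the middle.

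**Figure D3:**
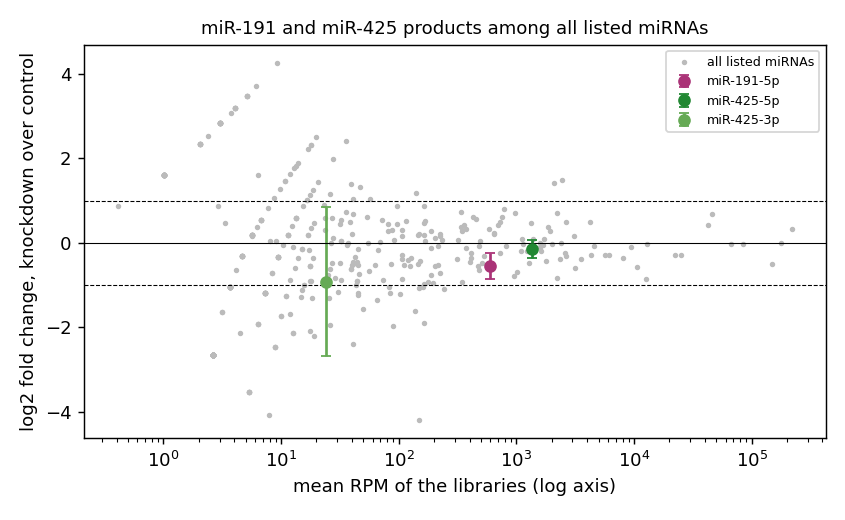
Log2 fold change of knockdown over control against the mean RPM of the libraries (log axis) for all 425 listed miRNAs (grey), with the 3 listed products in colour and their 95% counting intervals as bars. Dashed lines mark 2-fold, which none of the 3 products crosses with its value, from -0.15 for miR-425-5p to -0.92 for miR-425-3p.

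Among miRNAs of like abundance miR-191-5p again lay below the lower quartile and miR-425-5p between the quartiles. Unlike among the 124, intervals below 0 did not outnumber those above 0. There were 35 other miRNAs with a mean RPM within 2-fold of that of miR-191-5p. Their median log2 fold change was 0.03, with quartiles of -0.34 and 0.41, and 4 of the 35 were lower than miR-191-5p. Of the 35, 17 had a log2 fold change below 0, and the interval lay below 0 for 7 and above 0 for 8. Around miR-425-5p there were 36 such miRNAs, with a median of -0.03 and quartiles of -0.21 and 0.44, and 13 of them were lower than miR-425-5p. Of the 36, 20 had a log2 fold change below 0, and the interval lay below 0 for 8 and above 0 for 12. The miRNAs next to miR-191-5p in the order of the control library moved in both directions. Just above it, miR-27a-3p was at 794 and 670 RPM in the control and knockdown libraries (log2 fold change -0.24) and miR-125b-1-3p at 746 and 1212 RPM (0.70). Just below it, miR-146b-5p was at 600.4 and 809 RPM (0.43) and miR-192-5p at 600.4 and 913 RPM (0.60). Among these 5 miRNAs, miR-191-5p had the lowest log2 fold change. The neighbours of miR-425-5p had log2 fold changes of -0.0013 for miR-183-5p, -0.48 for miR-23b-3p, -0.19 for miR-29a-3p and -0.11 for miR-320a. Among the 124 miRNAs, the log2 fold changes closest to that of miR-191-5p were those of miR-769-5p (-0.55) and miR-542-3p (-0.56), and those closest to miR-425-5p were those of miR-199b-3p (-0.13) and miR-199a-3p (-0.12). With 1 value per condition, such closeness says no more than that the numbers are alike.

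The ratio of products within a library is free of the scaling between libraries, and it shows whether miR-425-5p and miR-191-5p moved together. In the control library the RPM of miR-425-5p was 2.02 times that of miR-191-5p (interval 1.64 to 2.51). In the knockdown library it was 2.69 times (2.31 to 3.13). The ratio was 1.33-fold higher in the knockdown library, with an interval of 1.02 to 1.73. On the log2 scale this is 0.41, with an interval of 0.03 to 0.79. The lower bound lies close to no change, and the intervals of the libraries overlap. The products of the shared transcript therefore had the same direction with scaling to the library total and opposite directions with the other scalings above, and under each of them miR-191-5p was placed below miR-425-5p by the same margin, which only just exceeds counting error. Whether the difference exceeds that between cultures or library preparations was not tested.

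The 5p arm led in both hairpins. In miR-425 the 3p arm held 2.17% of the RPM of both arms in the control library (6 of 277 reads, interval 0.799% to 4.65%) and 1.24% in the knockdown library (8 of 645 reads, 0.537% to 2.43%). This corresponds to 45.2 RPM of miR-425-5p for each RPM of miR-425-3p in the control and 79.6 in the knockdown library. The intervals overlapped, and the ratio of 3p to 5p changed by -0.82 on the log2 scale with an interval of -2.55 to 1.00, so a change in the choice of arm was not detectable. In miR-191 the 3p arm had 0 of 134 reads in the control library, which allows a share of up to 2.24%, and 0 of 237 in the knockdown library, which allows up to 1.27%. These limits lie just above the shares measured for miR-425-3p. Within each library the 95% intervals of the 3p share overlapped between the hairpins, with upper bounds of 2.72% and 1.54% for miR-191. In both libraries, however, reads of a 3p arm were seen only for miR-425. Whether arm use differs between the hairpins over both libraries together was not tested.

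**Figure D4:**
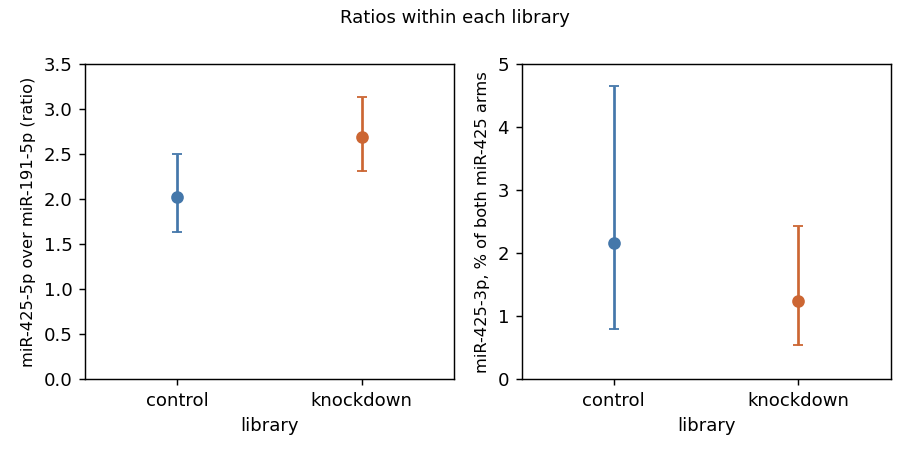
Left, the ratio of miR-425-5p to miR-191-5p in each library, and right, the 3p arm as a percentage of both miR-425 arms, with 95% counting intervals as bars. The ratio went from 2.02 to 2.69 and the 3p share from 2.17% to 1.24%, with overlapping bars in both panels.

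A strong preference for 1 arm was usual in these libraries. Hairpins with an arm whose name several hairpins share, such as miR-125b-5p, were left out, since their arms could not be assigned. Among 78 remaining hairpins with products named for both arms and at least 100 RPM for the hairpin, the minor arm held a median of 0.494% (quartiles 0 and 3.76%) when averaged over the libraries. The minor arm was listed in neither library for 23 of the 78, MIR191 among them. An arm that was not listed counted as 0%. Where a hairpin had few reads, such as MIR381 at 84.6 RPM in the control library, a minor arm could go unseen. The median and the place of MIR425 among the 78 therefore depend in part on depth. With a mean of 1.70% for its minor arm, MIR425 was above 52 of the 78. The 5p arm led in 45 of the 78 hairpins, as it did in MIR191 and MIR425.

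To see how far apart other neighbouring hairpins moved, hairpins next to each other on the same strand within 10 kb in GENCODE 29 were compared by the most abundant product of each hairpin, where both reached a mean of 100 RPM. Products that several hairpins share by name, such as miR-24-3p, were left out. Besides miR-425-5p and miR-191-5p there were 14 such pairs, some of which share a hairpin. The absolute difference of log2 fold changes within the 14 pairs had a median of 0.50 and ran from 0.0046 to 2.26. At 0.41, the difference between miR-425-5p and miR-191-5p was below this median, with 5 of the 14 pairs closer together. The interval of the difference excluded 0 in 8 of the 14 pairs, and both products had the same sign in 9 of the 14. The side of the median depended on which hairpins count as neighbours and on the abundance required. The RefSeq sequence table, whose positions were used first and which lacks the hairpins MIR93 and MIR183, gave 11 pairs with a median of 0.39, of which 6 were closer together than the cluster. All 24 other pairs within 10 kb, next to each other or not, had a median of 0.45, with 9 closer together and an interval that excluded 0 in 10. The GENCODE 29 positions of the main setting replaced those of RefSeq only after that table had been used and found to lack hairpins. This change of the main setting was thus not made ahead of the data. The setting with all pairs was also added after the data were seen. Where both products had to reach 1000 RPM, which leaves out miR-191-5p, 4 pairs had a median of 0.22, below the 0.41 of the cluster. The interval excluded 0 in 2 of these 4 pairs.

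The closest pairs were miR-221-3p and miR-222-3p, the products of a cluster on the X chromosome, at -0.29 and -0.29, then miR-99b-5p and let-7e-5p at -0.09 and -0.05, and let-7e-5p and miR-125a-5p at -0.05 and 0.03. The widest pairs were miR-27a-5p and miR-23a-3p at 1.48 and -0.78, miR-24-2-5p and miR-27a-5p at 0.31 and 1.48, and miR-542-3p and miR-503-5p at -0.56 and 0.56. In 2 of these 3 pairs miR-27a-5p was among the products compared. For MIR24-2 the product compared was miR-24-2-5p, at 95.2 and 118 RPM, only because miR-24-3p was left out as shared by name.

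**Figure D5:**
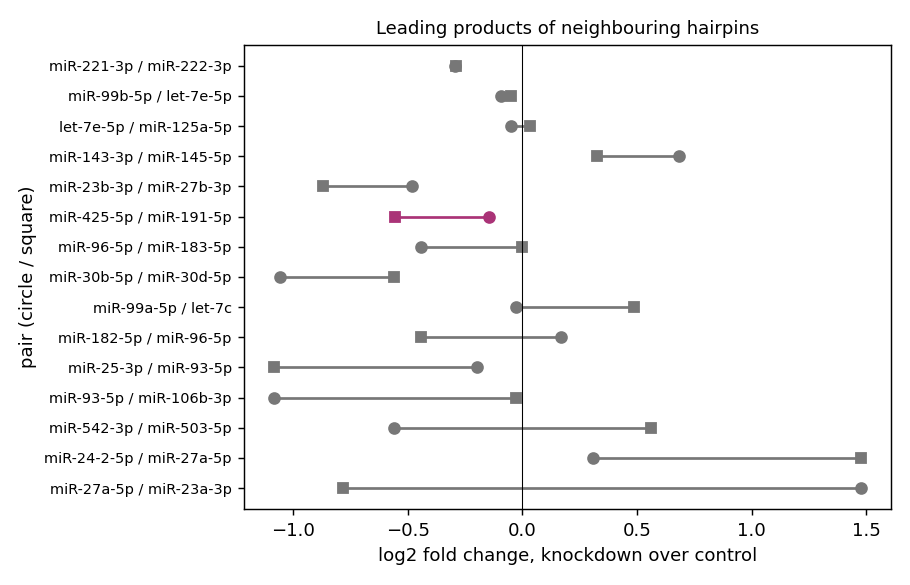
Log2 fold change of knockdown over control for 15 pairs of neighbouring hairpins, each hairpin by its most abundant product whose name no other hairpin shares. A circle marks the first and a square the second product named, and pairs are ordered by the distance between them. The pair of miR-425-5p (-0.15) and miR-191-5p (-0.56), in colour, stands sixth from the top, with both products left of 0.

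The nearest hairpin on chromosome 3 with a listed product at higher coordinates was MIRLET7G, also on the minus strand. Its product let-7g-5p, a member of the let-7 family, was at 6749 RPM in the control and 5482 RPM in the knockdown library, a log2 fold change of -0.30 with an interval of -0.40 to -0.20. At lower coordinates it was MIR138-1 on the plus strand. For miR-138-5p, which MIR138-1 shares with a second hairpin, the values were 116 and 95.6 RPM (22 and 47 reads), a log2 fold change of -0.28 with an interval of -1.04 to 0.52. For miR-138-1-3p each library held 2 reads, too few for a fold change. The value of let-7g-5p lay between those of miR-191-5p and miR-425-5p.

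The study asked which miRNAs LOC550643 could bind, so the seeds of the 3 products whose sequences are shown were also searched in the LOC550643 isoforms V1, V2 and V3 of its supplement (718, 581 and 476 nt). The sites searched on the sense strand, pairing with bases 2 to 8, were TTCCGTT for miR-191-5p, AGCGCAG for miR-191-3p and TTCCCGA for miR-425-3p. The search did not cover miR-425-5p. None of the 3 sites occurs in any isoform, and neither do the same sites without their first letter, which pair with bases 2 to 7. Of the 2370 mature miRNAs in the RefSeq table, 5.86% had the longer and 18.8% the shorter kind of site in V1, so a lack of both is the usual case. The search says only that these letters are not in these sequences.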

How the data were processed

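Small RNA libraries were made with a commercial kit. The authors counted reads per mature miRNA with a tool of their own and deposited them as RPM, in 1 table per library. FastQC, cutadapt and hg38 are named in the submitters' processing notes. The miRNA reference release is not given in the sources used here, nor is a filter on low values.

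From the deposited RPM, any miRNA that a library does not list counted as 0, each library was rescaled to 1000000, and log2 fold changes were taken with a pseudocount of 1 RPM, which understates changes at low values. The RPM of a single read was estimated by least squares from values up to 20 reads that lay within 0.1 of a whole read. Whole reads made up 93.3% of 253 such values in the control and 91.5% of 224 in the knockdown library. The remainder were fractions of a read. No p-value was computed, since each condition has 1 library, and the intervals cover counting error only. Shares have exact Clopper-Pearson intervals, changes of a ratio have conditional odds ratio intervals, and the 3-read floor was used for products not listed (scipy 1.17.1, pandas 2.3.3, Python 3.11.15). Of the 425 listed names, 372 were assigned to a single hairpin by RefSeq name or by symbol. Hairpin positions for the neighbouring pairs were taken from GENCODE 29, after the RefSeq table, used first, was found to lack hairpins. The estimate of a single read, the log2 fold changes and their intervals were tested on simulated whole reads, without PCR duplicates or fractions of a read. Arm shares, changes of a ratio and hairpin pairs were not part of that test.

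The members and lists were chosen with earlier results of these data known. The miRNAs named are the cluster's products, their neighbours in control RPM (2 above and 2 below each 5p product), any seed relatives, the 3 closest and 3 widest pairs of neighbouring hairpins, the nearest listed hairpins on each side, and the 2 closest log2 fold changes to each 5p product. Alternatives covered scaling, pseudocount, fold threshold, filters and the definition of neighbours.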

Additional observations from a re-analysis of the deposited data

How the results depend on the processing

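No paired analysis was possible because the conditions hold a single library each. Of the 5 alternatives tried for scaling and pseudocount, only median-of-ratios size factors and 75th-percentile scaling, which raise every log2 ratio, could turn a direction here. A pseudocount cannot turn a sign, and the values as deposited shift every log2 ratio by only -0.0002. Under these scalings the log2 fold change of miR-425-5p turned to 0.053 and 0.14. Those of miR-191-5p and miR-425-3p stayed below 0, but the interval of miR-425-3p included 0 under each, for example -2.40 to 1.12 with the 75th percentile. The difference between miR-191-5p and miR-425-5p was -0.41 without a pseudocount, -0.40 with both arms of each hairpin summed and -0.40 with a pseudocount of 10 RPM, against -0.41. The shares of the arms did not depend on rounding to whole reads. Past 2-fold there were 76 higher and 116 lower miRNAs, which became 28 and 66 when both libraries had to list the miRNA, 3 and 7 when its mean had to reach 100 RPM, and 19 and 25 with a pseudocount of 10 RPM. With 75th-percentile scaling they were 85 and 79, so that 51.8% of the calls were higher against 39.6%. The median difference within other pairs of neighbouring hairpins was 0.48 within 1 kb, 0.22 at a mean of at least 1000 RPM, 0.39 with RefSeq positions and 0.45 over all pairs within 10 kb, against 0.50. Those with RefSeq positions and with all pairs were chosen after seeing the data. Depth limits miR-425-3p and miR-191-3p most, with at most 8 reads in a library.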
